A study of Mus musculus with 7 samples.

Results

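Polycomb and trithorax genes encode the chromatin complexes that hold developmental genes silent or keep them open. The 36 genes named for this description were looked up by the symbol of the platform annotation, and 34 of them were measured among 22180 genes, each by a probe set that carries that symbol alone. Cbx6 and Kdm2b were only on probe sets that carry several symbols and were not analysed here. Pcgf3 had several probe sets, and the brightest on average stood for it.

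RNA of mouse cells of strain 129 was measured on 7 Affymetrix arrays. The groups were WT embryonic stem cells (ESC, 1 array), WT induced pluripotent stem cells (iPSC, 2 arrays), Nanog KO iPSC (2 arrays), WT embryonic fibroblasts (MEF, 1 array) and Nanog KO MEF (1 array). iPSC are somatic cells brought to an ESC-like state, and the Nanog protein is a homeodomain factor that helps keep pluripotent cells undifferentiated. The series asks whether cells can be reprogrammed without it. Several culture media (ESC, 2i/LIF, MEF) are listed for the whole series and not by sample, so medium and genotype cannot be told apart. They call the iPSC replicates biological but do not say whether the 2 KO arrays come from separate lines, nor how the Nanog allele was made or which cells were reprogrammed.

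As background, Polycomb repressive complex 2 (PRC2) places the repressive methyl mark on the tail of histone H3, and Polycomb repressive complex 1 (PRC1) attaches ubiquitin to histone H2A and compacts chromatin. The COMPASS complexes built around the MLL enzymes, the mammalian trithorax proteins, place the methyl mark of active promoters and enhancers. In pluripotent cells many promoters of developmental regulators carry both kinds of mark and stay nearly silent, while PRC2 subunits and the PRC1 reader Cbx7 are known as abundant there.

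Values are log2 intensities, on which a difference of 1 is a 2-fold change. Background was gauged on each array from 1394 receptor genes of smell and pheromone sensing, by their 95th percentile, which lay between 6.30 and 6.50, and all 34 genes lay above it on all 7 arrays. Nanog stood at 12.73 to 12.84 on the 3 WT pluripotent arrays, at 7.50 and 7.44 in KO iPSC, and at 6.53 and 6.42 in WT and KO MEF. The 14 pluripotent-cell markers had medians of 10.72 to 11.46 on the 5 pluripotent arrays and of 6.14 and 6.15 on the MEF arrays. The median of 17 fibroblast markers was 8.38 in WT ESC. It was 9.41 and 7.51 in the WT iPSC pair, 7.36 and 7.17 in the KO pair, and 11.73 and 12.19 in WT and KO MEF, so WT iPSC replicate 1 carried the most fibroblast signal among the pluripotent arrays. On such bulk arrays fewer cells of a type and less RNA per cell cannot be told apart. Of 14 mitosis genes, 10 fell in KO iPSC against the WT pluripotent arrays and 0 rose, 71.4% where 8.81% of all genes fell. Without WT iPSC replicate 1 there were also 10 lower and 0 higher, and without WT iPSC replicate 2 there were 6 lower. Most of these calls were lost when either KO array was left out, as were most calls among all genes.

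**Figure D1:**
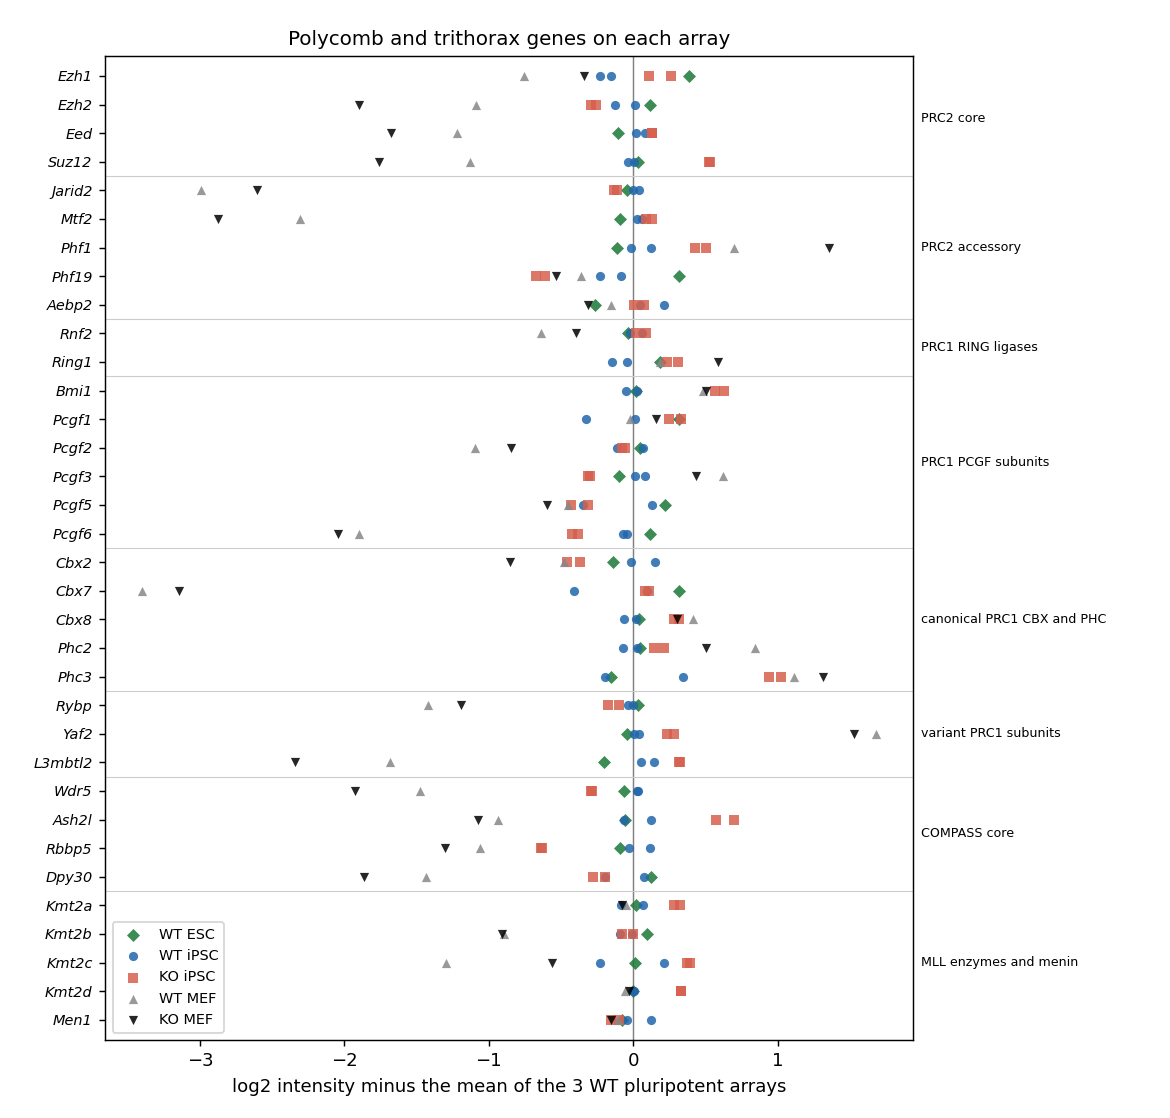
Log2 intensity of the 34 genes on each of the 7 arrays, minus the gene's mean over the 3 WT pluripotent arrays (vertical line at 0); genes are grouped by complex and each symbol is 1 array. The MEF arrays lie far to the left for Cbx7, Jarid2 and Mtf2 and to the right for Yaf2, while the KO iPSC squares stay within about 1 of the line.

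The first comparison set KO iPSC against the 3 WT arrays of pluripotent cells. The genes of Polycomb and trithorax complexes moved in both directions and by less than 2-fold. Of the 34, 6 rose (Suz12, Phf1, Bmi1, Phc3, Ash2l and Kmt2d), 2 fell (Pcgf6 and Rbbp5) and 26 did not pass an adjusted p of 0.05 in limma. These 8 make 23.5% of the members. Among all 22180 genes 15.7% passed (6.89% higher, 8.81% lower), and among the 14786 brighter ones, which include all 34 members, 23.1% passed. The share of members called was thus near that of the brighter genes. The median difference was 0.10 over the members and 0.03 over all genes.

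Of the 4 core PRC2 genes 1 rose. Suz12, the scaffold that holds the complex together, read 11.22 in WT ESC, 11.16 and 11.20 in the WT iPSC pair, and 11.72 and 11.71 in the KO pair. Both KO arrays stood above all 3 WT arrays, which lay within 0.06 of each other. The difference was 0.53 (SE 0.07, 2 arrays against 3, 1.44-fold, limma adjusted p = 0.0094). Ezh2, the methyltransferase of dividing cells, read 11.53, 11.28 and 11.42 on the WT arrays and 11.15 and 11.12 in KO iPSC. The KO arrays lay below every WT array, but the difference of -0.27 (95% interval -0.52 to -0.03) did not pass (limma adjusted p = 0.122). Ezh2 is a gene of cycling cells as well, and the mitosis list lay lower on the same KO arrays, with medians of 10.72 and 10.76 against 11.27 to 11.46 on the WT arrays; the part of this in the Ezh2 value was not tested. Ezh1, the second methyltransferase (0.19, interval -0.30 to 0.68), and Eed, which reads the mark and stimulates the enzyme (0.13, interval -0.09 to 0.35), did not pass.

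Among the PRC2 cofactors, the Polycomb-like proteins Phf1, Phf19 and Mtf2 took different values. Phf1, which binds CpG-rich DNA and methylated H3, read 7.88, 7.98 and 8.12 on the WT arrays and 8.42 and 8.50 in KO iPSC. It rose by 0.47 (SE 0.10, adjusted p = 0.0306). Phf19 read 7.93 in WT ESC, 7.38 and 7.53 in the WT iPSC pair, and 6.94 and 7.0 in the KO pair. All KO values lay below all WT values, yet the WT arrays spread over 0.55 and the difference of -0.64 (SE 0.17) did not pass in limma (adjusted p = 0.058). Mtf2, which recruits PRC2 to CpG islands in ESC, changed by 0.11 (interval -0.10 to 0.32). Jarid2 (-0.12) and Aebp2 (0.04), the cofactors of the other PRC2 form, did not pass either.

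In PRC1, a polyhomeotic gene and a PCGF gene rose. Phc3, a polyhomeotic protein that joins PRC1 units into larger assemblies, read 8.24 in WT ESC, 8.74 and 8.20 in the WT iPSC pair, and 9.33 and 9.42 in the KO pair. This was the largest difference of the 34 in this comparison, 0.98 (SE 0.18, 1.98-fold, adjusted p = 0.0197). MEF read 9.51 and 9.71. The fibroblast medians were 7.36 and 7.17 on the KO iPSC arrays and 7.51 to 9.41 on the WT arrays, and the part of fibroblast signal in the Phc3 value was not tested. Bmi1, a PCGF subunit of canonical PRC1, read 7.08 in WT ESC, 7.0 and 7.08 in the WT iPSC pair, and 7.68 and 7.62 in the KO pair. It rose by 0.60 (SE 0.08, adjusted p = 0.00751). Pcgf6, the subunit of a variant PRC1 that holds germline genes silent in ESC, read 11.73, 11.55 and 11.57 on the WT arrays and 11.19 and 11.23 in KO iPSC. It fell by 0.40 (SE 0.09, adjusted p = 0.0375).

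The other PRC1 genes did not pass in this comparison. The ubiquitin ligase Rnf2, the main one in ESC, had a difference of 0.05 with an interval of -0.15 to 0.25, and its paralog Ring1 one of 0.27 (interval -0.02 to 0.57). Among the PCGF genes, Pcgf1 stood at 0.29, Pcgf2 at -0.06, Pcgf3 at -0.31 and Pcgf5 at -0.37. Of the chromodomain readers that bring canonical PRC1 to the PRC2 mark, Cbx2 stood at -0.41 (adjusted p = 0.0594), Cbx8 at 0.30 (adjusted p = 0.0566) and Cbx7 at 0.09. Phc2 stood at 0.18. The variant-PRC1 subunits Rybp (-0.14), Yaf2 (0.26) and L3mbtl2 (0.32) did not pass.

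The core of COMPASS split in the same cells. Ash2l and Rbbp5 form the pair that switches the MLL enzymes on. Ash2l read 10.66, 10.65 and 10.83 on the WT arrays and 11.41 and 11.29 in KO iPSC, and it rose by 0.64 (SE 0.10, adjusted p = 0.012). Rbbp5 read 10.43, 10.50 and 10.64 on the WT arrays and 9.89 and 9.88 in KO iPSC, and it fell by 0.64 (SE 0.09, adjusted p = 0.0101). In neither gene did the KO and WT arrays overlap, which also held for 51.6% of all genes. Wdr5, the scaffold that reads the H3 tail (-0.29, adjusted p = 0.061), and Dpy30, which binds Ash2l (-0.24), did not pass.

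Among the enzymes, Kmt2d, which marks enhancers, read 9.41, 9.43 and 9.41 on the WT arrays and 9.75 on both KO arrays. It rose by 0.33 (SE 0.07, adjusted p = 0.0346), the smallest change that passed among the 34. Its paralog Kmt2c stood at 0.38 on WT arrays that spread over 0.44 and did not pass. The promoter-bound Kmt2a (0.30, adjusted p = 0.0663) and Kmt2b (-0.04, interval -0.26 to 0.19) and their partner Men1, menin (-0.13), did not pass.

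**Figure D2:**
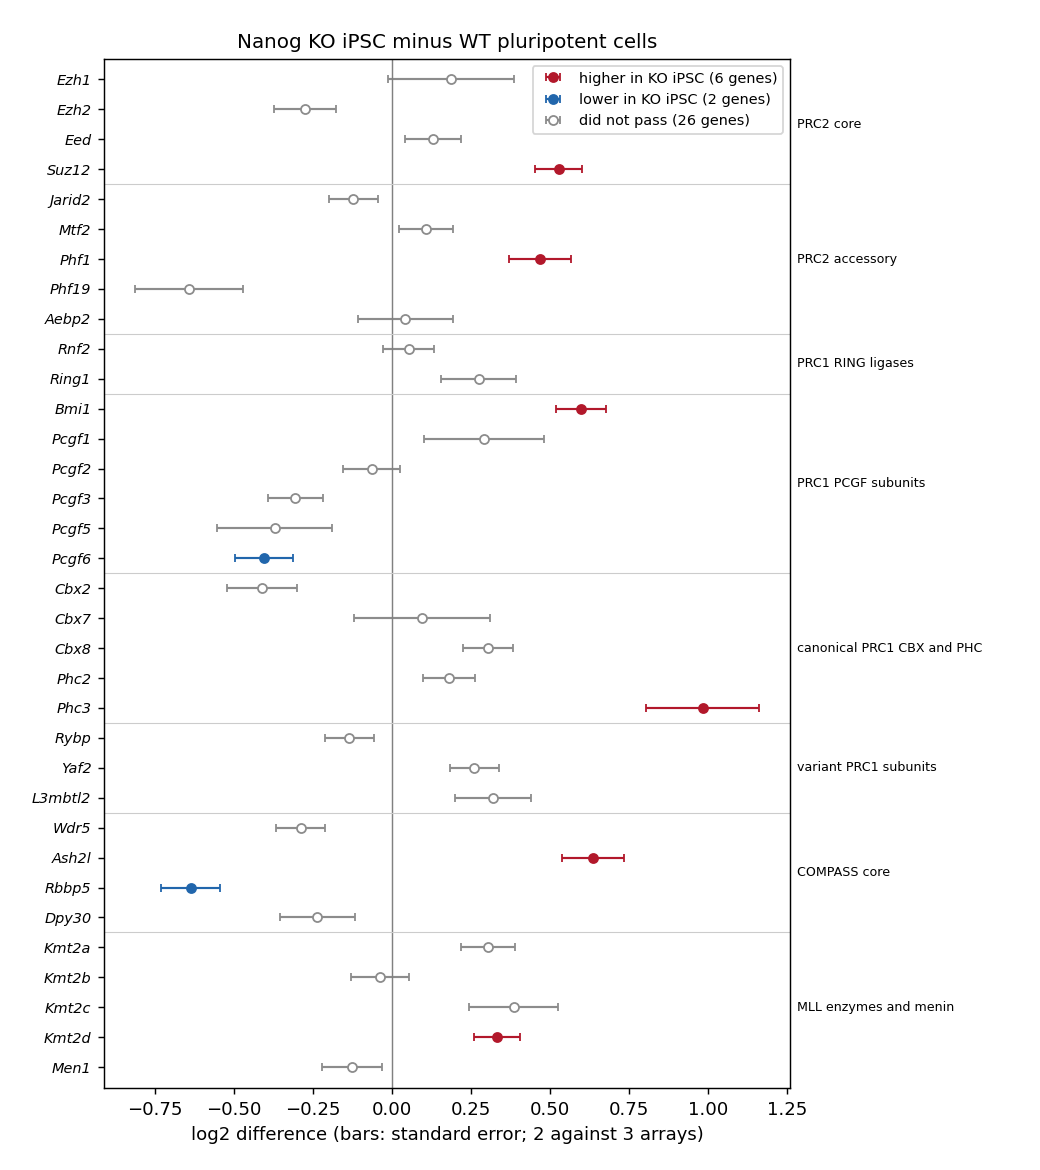
Log2 difference of KO iPSC (2 arrays) minus WT pluripotent cells (3 arrays) for the 34 genes by complex, with the standard error of the limma fit as bars. Filled symbols passed an adjusted p of 0.05 (6 higher, 2 lower), open symbols did not (26); Phc3 at 0.98 stands farthest from 0.

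Over the 34 genes, both KO arrays lay above all 3 WT arrays in 15, below in 10 and overlapped them in 9. Of all genes, 51.6% had both KO arrays on 1 side of the WT range (28.4% above, 23.2% below), so such separation is common here. The 2 KO arrays differed from each other by a median of 0.05 over the members (highest 0.15, Ezh1), and the 2 WT iPSC arrays by a median of 0.10 (highest 0.54, Phc3). Without KO iPSC replicate 1, 0 of the 34 passed in limma (6 higher and 3 lower at an unadjusted p under 0.05), and without KO iPSC replicate 2 also 0 (7 and 3). This loss was general: 1.54% and 1.82% of all genes passed in these fits (18.8% and 19.9% unadjusted). Without WT iPSC replicate 1, 7 rose and 4 fell (18.8% of all genes passed), and without WT iPSC replicate 2, 4 and 1 (10.1%). With the array medians made equal, 8 rose and 1 fell (15.9% of all genes passed), so the balance of directions depends on the scaling.

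To show what lies upstream of the genes that passed, the RefSeq sequence of the 250 bases before the annotated start (mouse GRCm38.p6, strain C57BL/6J, not the strain of these cells) was taken for those with a single promoter in the table, at most 3 a direction in order of size. Promoters were found for 30 of the 36 genes. The windows are written 5′ to 3′ along the gene. Capitals mark exact matches, on either strand, to TTTGGCGC or TTTCCCGC (E2F), CCGGAAGT (ETS), the NRF1 palindrome, CCAAT (the CCAAT box) or TGACGTCA (CRE), and no marked matches overlap.
Suz12, chr11:79992856-79993105, plus strand: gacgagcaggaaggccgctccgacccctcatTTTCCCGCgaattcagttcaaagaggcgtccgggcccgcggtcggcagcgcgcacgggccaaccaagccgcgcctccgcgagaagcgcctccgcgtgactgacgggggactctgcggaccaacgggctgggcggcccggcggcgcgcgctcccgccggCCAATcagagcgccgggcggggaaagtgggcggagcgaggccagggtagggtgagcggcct
Bmi1, chr2:18676768-18677017, plus strand: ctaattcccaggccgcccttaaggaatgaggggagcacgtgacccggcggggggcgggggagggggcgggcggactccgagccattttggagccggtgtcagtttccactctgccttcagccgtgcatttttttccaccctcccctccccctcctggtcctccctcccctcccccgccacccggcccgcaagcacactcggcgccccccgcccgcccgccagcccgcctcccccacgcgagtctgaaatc
Phc3, chr3:30969416-30969665, minus strand: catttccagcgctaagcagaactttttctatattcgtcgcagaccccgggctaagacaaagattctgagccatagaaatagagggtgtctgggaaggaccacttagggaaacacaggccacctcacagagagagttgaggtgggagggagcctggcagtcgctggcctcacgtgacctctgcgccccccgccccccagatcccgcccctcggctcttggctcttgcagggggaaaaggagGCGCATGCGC
Rbbp5, chr1:132477117-132477366, plus strand: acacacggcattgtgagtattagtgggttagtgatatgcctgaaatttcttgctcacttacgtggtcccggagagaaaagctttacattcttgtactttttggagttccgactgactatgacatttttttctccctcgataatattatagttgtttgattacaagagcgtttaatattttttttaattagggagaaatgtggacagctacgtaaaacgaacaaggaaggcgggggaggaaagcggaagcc
Pcgf6, chr19:47050907-47051156, minus strand: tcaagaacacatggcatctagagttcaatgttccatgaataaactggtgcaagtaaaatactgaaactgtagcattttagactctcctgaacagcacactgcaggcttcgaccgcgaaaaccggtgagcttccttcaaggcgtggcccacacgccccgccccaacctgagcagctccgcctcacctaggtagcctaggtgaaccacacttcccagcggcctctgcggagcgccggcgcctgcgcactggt

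The Suz12 window holds 37 CpG dinucleotides, an E2F match and a CCAAT match. The Phc3 window holds 12 CpG and ends in the NRF1 match, and the windows of Bmi1 (21 CpG), Rbbp5 (10) and Pcgf6 (14) hold none of these letters. Over 46 promoter windows of the listed genes the median was 20.5 CpG, and over all 32851 windows it was 6. The E2F letters stand in 2 of the 46 windows (Suz12 and Phf19) and in 1.3% of all windows, CCAAT in 16 of 46 (34.8%) and in 33.8% of all, NRF1 in 1 and in 0.782%, CRE in 1 (Cbx8) and in 1.55%, and ETS in 0 and in 2.88%. Genes with several promoters count more than once, and a match is a description of letters only.

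With WT iPSC alone as the reference, the cell type is the same on both sides. The KO arrays and the 2 WT iPSC arrays are shared with the comparison above, so the values are given side by side and are no second test. Here 5 of the 34 rose and 3 fell (16.5% of all genes passed, 6.93% higher and 9.55% lower, and 24.6% of the brighter genes). Suz12 (0.54, SE 0.08), Phf1 (0.41), Bmi1 (0.61), Phc3 (0.91) and Ash2l (0.61) rose, and Rbbp5 (-0.68, SE 0.09) fell. Phf19 (-0.48, SE 0.10, limma adjusted p = 0.0305) and Cbx2 (-0.48, SE 0.10, adjusted p = 0.0372) fell as well. Cbx2 read 9.60 and 9.43 in the WT pair and 9.08 and 8.99 in the KO pair, with WT ESC between the pairs at 9.31. Pcgf6 (-0.35, adjusted p = 0.0516) and Kmt2d (0.33, adjusted p = 0.0566) missed the threshold here. Without either KO array 0 passed (6 higher and 3 lower at an unadjusted p under 0.05 in limma without replicate 1, 5 and 3 without replicate 2), and 2.34% and 2.56% of all genes passed in these fits (18.5% and 19.1% unadjusted). Without WT iPSC replicate 1, 7 rose and 6 fell (27.0% of all genes passed), and without WT iPSC replicate 2, 10 and 3 (25.3%). Median centring gave 7 and 2 (16.5% of all genes passed).

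WT ESC and WT iPSC gave 0 calls among the 34 (0.162% of all genes passed, 0.0812% in each direction) in limma. At an unadjusted p under 0.05 there were 3 higher and 2 lower, 5 of 34 where 12.2% of all genes passed, so their share was near that of all genes. Those were Ezh1 (9.86 in WT ESC against 9.25 and 9.32, difference 0.58, interval 0.27 to 0.88), Phf19 (0.48) and Pcgf1 (0.48), which were higher, and Aebp2 (-0.40) and L3mbtl2 (-0.30), which were lower. WT ESC has 1 array, and its spread is assumed equal to that of the iPSC groups. Without WT iPSC replicate 2, 5 members passed as higher (Ezh1, Phf19, Pcgf1, Pcgf5 and Cbx7), a fit in which the spread rests on the KO pair alone and 10.3% of all genes passed. Cbx7 had the widest range over the 3 WT arrays of the 34 genes, 0.73, from 10.79 in WT iPSC replicate 1 to 11.52 in WT ESC.

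Between iPSC of both genotypes and MEF, 14 of the 34 genes passed with at least a 2-fold difference, against 0 between KO iPSC and the WT pluripotent arrays (14.2% and 4.46% of all genes). Of the 34 genes 19 were higher in iPSC, 4 were lower and 11 did not pass in limma with genotype held in the fit (4 arrays against 2). These are 67.6% of the members, while 30.7% of all genes (16% higher, 14.7% lower) and 44.7% of the brighter genes passed. The 5 pluripotent arrays lay above both MEF arrays in 21 of the 34 genes and below in 5 (42.4% of all genes did not overlap, 23% above and 19.4% below). The median difference was 0.55 over the members and 0.03 over all genes.

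All 4 core PRC2 genes were higher in iPSC. Suz12 stood at 10.07 in WT MEF and 9.43 in KO MEF, 1.70 below iPSC (SE 0.27, adjusted p = 0.0077). Eed was 1.54 higher in iPSC (SE 0.14), Ezh2 1.33 (SE 0.16) and Ezh1 0.55 (SE 0.09). All 14 mitosis genes were higher in iPSC too, with a median of 1.39, and their part in the PRC2 values was not tested. Among the cofactors, Jarid2 read 11.49 to 11.67 on the 5 pluripotent arrays and 8.63 and 9.02 in MEF, 6.73-fold higher in iPSC (2.75, SE 0.14, adjusted p = 0.00051). Mtf2 read 9.17 to 9.39 there and 6.96 and 6.38 in MEF, close to background (2.67, SE 0.16). Phf1 was lower in iPSC (-0.76, SE 0.10), while Phf19 (0.05) and Aebp2 (0.32) did not pass.

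PRC1 genes divided by paralog. Cbx7 had the largest difference of the 34: it read 10.79 to 11.52 on the pluripotent arrays and 7.80 and 8.05 in MEF, 9.45-fold higher in iPSC (3.24, SE 0.16, adjusted p = 0.00048). Cbx2 was higher by 0.50 and Cbx8 did not pass (-0.22). Pcgf6 (1.74, SE 0.09) and Pcgf2 (0.93) were higher in iPSC and Pcgf3 (-0.66) was lower, while Bmi1, Pcgf1 and Pcgf5 did not pass. L3mbtl2, the partner of Pcgf6 in its complex, was 4.66-fold higher (2.22, SE 0.21). Rybp and its paralog Yaf2, which stimulate the ligase, differed in opposite directions. Rybp read 11.64 to 11.85 on the pluripotent arrays and 10.39 and 10.62 in MEF (1.23, SE 0.11), and Yaf2 8.40 to 8.73 and 10.12 and 9.98 (-1.47, SE 0.11, adjusted p = 0.0012). Rnf2 was higher (0.55) and Phc2 lower (-0.60, adjusted p = 0.031, passing in 4 of 9 alternatives), and Ring1 (-0.30) and Phc3 (-0.68) did not pass.

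All 4 COMPASS core genes were higher in iPSC, Wdr5 by 1.57 (SE 0.08), Dpy30 by 1.5, Ash2l by 1.34 and Rbbp5 by 0.89. Of the enzymes, Kmt2c (1.12, SE 0.16) and Kmt2b (0.86, SE 0.08) were higher, and Kmt2a (0.21), Kmt2d (0.21) and Men1 (0.09) did not pass. Men1 read 10.37 to 10.65 on all 7 arrays, and the MEF and pluripotent arrays overlapped.

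**Figure D3:**
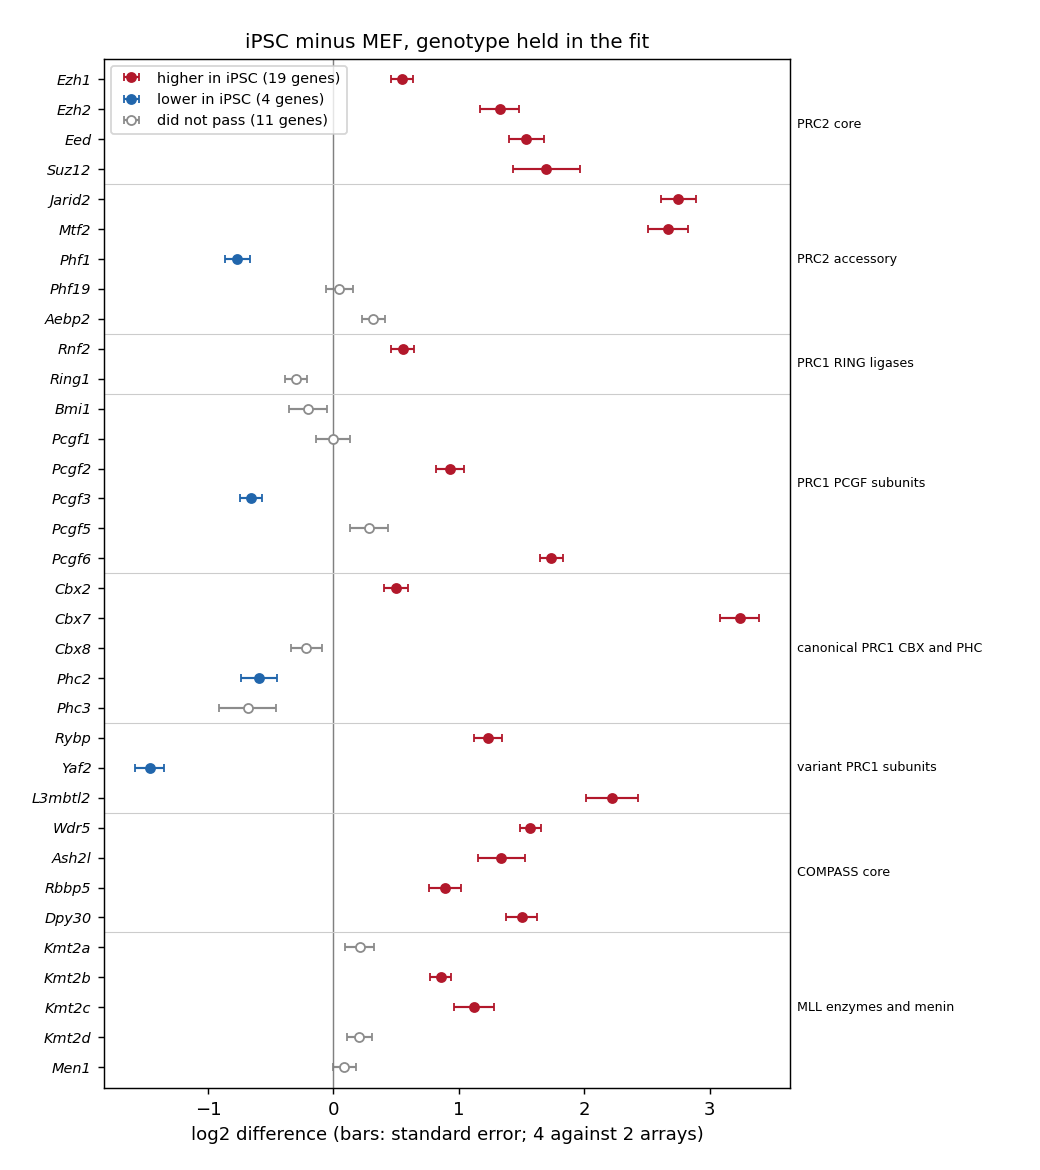
Log2 difference of iPSC (4 arrays) minus MEF (2 arrays) for the 34 genes by complex, with the standard error of the limma fit as bars. The core of PRC2 and of COMPASS lies to the right of 0 throughout, Cbx7 reaches 3.24 and Yaf2 lies farthest left at -1.47.

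KO MEF and WT MEF have 1 array each, so their differences have no replicate check and no test. The members had a median difference of -0.13 (all genes -0.02). Of the 34, 2 differed by more than 0.5 upward and 4 downward, 6 in all, where 15.4% of all genes passed that size (8.47% upward, 6.97% downward). The downward ones were Ezh2 (10.32 in WT and 9.51 in KO MEF), L3mbtl2 (9.34 and 8.68), Suz12 (10.07 and 9.43) and Mtf2 (6.96 and 6.38). The upward ones were Kmt2c (8.37 and 9.11) and Phf1 (8.69 and 9.34). The median of the mitosis genes was 10.29 in WT MEF and 9.02 in KO MEF, and that of the fibroblast markers 11.73 and 12.19. The part of either in these values was not tested. The Y-linked Uty read 4.86 in WT and 8.78 in KO MEF, while the Y-linked Kdm5d lay below background on both arrays. Whether the arrays differ in sex was not tested, and such a difference could not be told apart from genotype.

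The KO minus WT difference was set against cell type by the interaction of the 7-array fit. MEF have 1 array for each genotype, and their spread is assumed equal to that of the iPSC groups. It passed for 2 of the 34 genes, Suz12 and L3mbtl2, and 8.55% of all genes passed (3.07% higher, 5.48% lower). Suz12 was 0.54 higher in KO than in WT iPSC and 0.63 lower in KO than in WT MEF, an interaction of 1.17 (SE 0.14, limma adjusted p = 0.0157). L3mbtl2 was 0.22 higher and 0.66 lower, an interaction of 0.88 (SE 0.15, adjusted p = 0.0336). Mtf2 (0.63, adjusted p = 0.0657), Ash2l (0.75, adjusted p = 0.08), Bmi1 (0.59, adjusted p = 0.0869) and Ezh2 (0.60, adjusted p = 0.0957) did not pass. The mitosis genes, lower in KO in both cell types, had a median interaction of 0.51. Without either KO iPSC array 0 members passed (4 higher and 0 lower at an unadjusted p under 0.05 in limma without replicate 1, 5 and 0 without replicate 2), where 0.401% and 0.712% of all genes passed (16.2% and 16.6% unadjusted). Without WT iPSC replicate 1, 7 were higher and 0 lower (22.6% of all genes passed), and without WT iPSC replicate 2, 7 and 2 (21.8%).

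**Figure D4:**
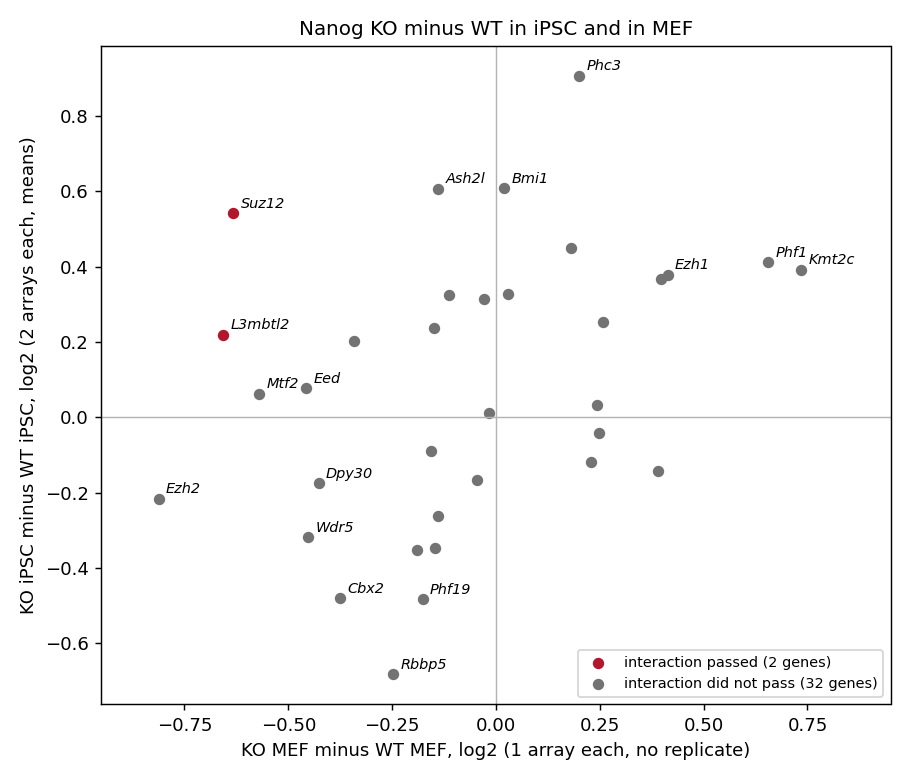
Log2 difference of KO minus WT in MEF (horizontal, 1 array each) and in iPSC (vertical, means of 2 arrays each), 1 point for each of the 34 genes. Suz12 and L3mbtl2, at upper left, are the 2 genes whose interaction passed; Rbbp5 at the bottom and Phc3 at the top have the largest differences in iPSC.

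Further genes of these pathways were taken from lists that had been written down with earlier results of these data known. Of 29 other Polycomb genes 6 rose and 1 fell in KO iPSC against the WT pluripotent arrays, with a median of 0.02. This is 24.1%, where 15.7% of all genes and 23.1% of the brighter genes passed. Sfmbt2, an imprinted gene for a Polycomb-group protein, read 9.33 in WT ESC, 9.63 and 9.34 in the WT iPSC pair, and 6.39 and 6.50 in the KO pair. MEF read 6.64 and 6.40. Of the 2 KO iPSC arrays 1 lay above background, so the fitted fall of -2.98 (SE 0.12, limma adjusted p = 0.00037) rests on a KO level that is not well measured. Asxl3, a partner of the H2A deubiquitinase, read 6.67 to 6.85 on the WT arrays and 8.57 and 8.59 in KO iPSC (1.81, SE 0.09, adjusted p = 0.000556). In MEF, Asxl3 was higher in KO as well, 7.46 in WT and 8.67 in KO, and its interaction of 0.61 did not pass. Its relative Asxl1 (0.51), the PRC2 cofactors Lcor (0.62) and Lcorl (0.67), and Fbrs (0.71), a subunit of variant PRC1, rose as well. Asxl3 and Sfmbt2 passed in all 10 alternatives and were the calls left (1 up, 1 down) without either KO array, and without WT ESC 5 rose and 3 fell. Against WT iPSC alone, which is the same fit as without WT ESC, these 5 rose and 3 fell. They are 27.6%, where 16.5% of all genes and 24.6% of the brighter genes passed. The PRC2 and elongin partner Epop was among those that fell, from 10.97 and 10.91 to 9.7 and 9.67 (-1.25, SE 0.08, adjusted p = 0.0021). WT ESC lay at 9.91, near the KO arrays, and in the comparison with all 3 WT arrays Epop did not pass (-0.91, SE 0.33).

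Of 18 other trithorax genes 2 rose and 1 fell, 16.7% where 15.7% of all genes and 23.1% of the brighter genes passed. Kdm5b, a demethylase that removes the COMPASS mark, read 11.55, 11.69 and 11.73 on the WT arrays and 10.41 and 10.44 in KO iPSC, close to MEF (10.12 and 10.25). It fell by 1.23 on the log2 scale (SE 0.09, adjusted p = 0.00146). Its paralog Kdm5a rose by 0.40, and Ncoa6, a subunit of the Kmt2c and Kmt2d complexes, by 0.78 (SE 0.09). Kdm5b passed in all 10 alternatives, Ncoa6 in 8 and Kdm5a in 7. Without WT iPSC replicate 1, 3 rose and 3 fell, in a fit where 18.8% of all genes passed. The interaction passed, downward, for 1 of these 18 genes, Kdm5b (-1.41, limma adjusted p = 0.0112), and for 4 of the 29 other Polycomb genes (8.55% of all genes passed). The 4 were Uty (-3.99, adjusted p = 0.0141), Sfmbt2 (-2.79, adjusted p = 0.00732), Auts2 (-1.22, adjusted p = 0.0393) and Epop (-0.76, adjusted p = 0.0438). Uty is Y-linked and lay above background on the KO MEF array alone. Without KO iPSC replicate 1 none of these 5 passed, and without replicate 2 only Sfmbt2 did.

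Of 44 developmental regulators known as Polycomb targets in ESC, 3 rose and 3 fell in KO iPSC against the WT pluripotent arrays, with a median of 0.02. These 6 of 44 are 13.6%, below the 15.7% of all genes and the 23.1% of the brighter genes. Many genes of this list are dim. On the KO iPSC arrays 30 and 34 of the 44 lay above background, and on the WT arrays 36 to 41. The brighter genes are thus an unlike reference, and the part of dim signal in the low share was not tested. The share depended on the reference. Against WT iPSC alone, the same fit as without WT ESC, 4 rose and 6 fell. That is 22.7%, where 16.5% of all genes and 24.6% of the brighter genes passed. The genes named here are single genes of the list and not a pattern of it. Olig2, a neural transcription factor, fell from 9.51 to 10.59 on the WT arrays to below background, at least 11.4-fold (fitted log2 -4.22), and Otx2, an epiblast and forebrain factor, at least 4.12-fold (fitted log2 -2.35). These bounds set the dim group at the mean receptor background of its arrays. The growth factor gene Igf2 fell by 1.08 on the log2 scale. Gata6, an endoderm regulator, rose from 6.61 to 7.03 on the WT arrays to 8.0 and 8.02 (1.15, SE 0.14, adjusted p = 0.0059), and Isl1 (0.56) rose, as did En2 (fitted 0.56), which lay above background on 1 of the 3 WT arrays. Olig2 and Otx2 were the 2 calls left without either KO array, and without WT ESC 4 rose and 6 fell. No chromatin mark was measured, so these are RNA levels of the targets alone.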

How the data were processed

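The authors deposited 1 RMA intensity per probe set and array, not log-transformed. The submitters' processing notes name Affymetrix Expression Console 1.3.0.187, and the genome build is not given in the sources used here. The design had assumed log2 values, so log2 was taken here, with no further normalization. RMA compresses the differences of dim genes. Probe sets with 1 symbol in the platform annotation (23521 of 33649) were used, the brightest on average standing for a gene. Differences were tested in R 4.3.3 by limma 3.58.1 (two-sided moderated test, Benjamini-Hochberg over 22180 genes, threshold 0.05). KO iPSC against WT pluripotent used 5 arrays. The interaction and both comparisons with WT iPSC alone used 7 arrays with a coefficient per group, where groups of 1 array add nothing to the spread. iPSC against MEF used 6 arrays with genotype as a covariate. The fits were tested on simulated data. Intervals are 95% intervals of the fit. P-values measure the spread that each fit leaves between arrays. In the 7-array fits this is the spread within the WT and KO iPSC pairs alone. ESC and MEF are assumed there to vary as iPSC do. So few arrays limit the precision of the p-values.

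The members, the lists and the tests were chosen with earlier results of these data known. All 34 measured members are accounted for; of the further lists, up to 6 genes per comparison with the largest difference among those that passed were eligible to be named. Alternatives were median centring, quantile normalization, eBayes with trend and robust fitting, a filter on dim genes, the mean of a gene's probe sets, leaving out arrays, and the replicate number as a block. Promoters were matched by symbol to RefSeq.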

Additional observations from a re-analysis of the deposited data

Results flagged for a closer look

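The KO minus WT difference of 2 members differed between iPSC and MEF by the interaction in limma. These are 5.88% of the 34 members, below the 8.55% of all genes and 11.7% of the brighter genes that passed. For Suz12 the interaction was 1.17, with KO above WT in iPSC and below WT in MEF. For L3mbtl2 it was 0.88, with the same directions, and its KO minus WT difference in iPSC did not pass by itself. Both rest on 1 array for each MEF genotype, whose spread is assumed equal to that of the iPSC groups. The Y-linked Uty differed between the MEF arrays as well (4.86 in WT, 8.78 in KO), and a difference of sex was not tested. No group held enough arrays for a check of single arrays standing apart.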

How the results depend on the processing

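Directions held: of the members' calls, 8 of 8 against the WT pluripotent arrays, 8 of 8 against WT iPSC, 23 of 23 against MEF and 2 of 2 interactions kept their sign in every alternative that was run, and 0, 0, 21 and 0 of them also passed in each. Against MEF, Cbx2 and Phc2 did not pass in every alternative. Counts moved more. Against the WT pluripotent arrays 1 member fell after median centring (2 as reported), where 15.9% of all genes passed (15.7% as reported). Against WT iPSC 8 rose after quantile normalization (16.8% of all genes passed) and 6 fell with trend and robust fitting (18.1%). Among the brighter genes alone 5 fell (24.6% of those genes passed). As reported, 5 rose and 3 fell (16.5% of all genes). With trend and robust fitting the interaction passed for 4 higher and 1 lower, where 10.3% of all genes passed. Leaving out each iPSC array in turn gave 0 to 7 higher and 0 to 4 lower against the WT pluripotent arrays, 0 to 10 and 0 to 6 against WT iPSC, 0 to 5 higher for WT ESC against WT iPSC, and 0 to 7 higher and 0 to 2 lower for the interaction. The replicate numbers were not shown to pair the samples (correlation of the deviations 0.0166 across genes). With the replicate block 4 rose and 3 fell against WT iPSC, where 14.8% of all genes passed. Of the further genes, Rbbp4 passed as 0.37 against MEF and had -0.0048 with the mean of its probe sets. The Rbbp4 probe set used averaged 11.67, and its other one 5.11, which is below the receptor background. A fit of the 4 iPSC arrays alone gave 5 and 3 by construction, since groups of 1 array add nothing to the spread, so it is no separate check. With this number of arrays even differences of several times the SE could miss the threshold. Against the WT pluripotent arrays, Wdr5 (-0.29, SE 0.08) and Phf19 (-0.64, SE 0.17) did not pass. A gene that did not pass is thus not shown to be unchanged.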

Other observations

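Among the further genes, the Y-linked H3 demethylase Uty read 8.78 in KO MEF and 4.80 to 6.18 on the other 6 arrays, below the background of each. Kdm5d, the other Y-linked gene on the lists, was below background on all 7 arrays, with 5.23 in KO MEF. The X-linked paralog Kdm6a read 11.03 in WT ESC and 11.39 to 11.75 in iPSC, and 10.26 and 9.98 in WT and KO MEF. Scml2, also X-linked, a Polycomb-group gene, read 7.38 and 8.40 in WT iPSC and 6.18 in WT ESC, and 6.56 and 6.31 in KO iPSC; of the 2 KO iPSC arrays 1 lay above background. The fitted difference from WT iPSC was -1.46 (SE 0.34, limma adjusted p = 0.0472), on WT iPSC arrays that differ by about 1. Phc1, the polyhomeotic gene next to Phc2 and Phc3 in the family, read 11.78 to 12.28 on the 5 pluripotent arrays and 9.16 and 9.33 in MEF (2.72, adjusted p = 0.00028), and KO iPSC differed from the WT pluripotent arrays by 0.06 (SE 0.16).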
